A study of Mus musculus with 18 samples.

Results

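DNA replication and nucleotide supply is described here through 42 genes, compared between 3 Fabp4 genotypes of mouse bone marrow cells by bulk RNA sequencing. The members were taken by name: subunits of the replication machinery, the enzymes that supply deoxynucleotides and the E-type cyclins. All 42 were found among the 22017 genes of the in vitro table and among the 13195 genes of the sorted marrow table.

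The genotypes were homozygous Fabp4 knockout (KO), heterozygous Fabp4 knockout (HET) and Fabp4 wild type (WT). Fabp4 encodes a fatty acid binding protein of adipocytes and macrophages. The labels describe 18 mouse samples, of which 17 were used: 9 sorted from a preparation called vitro bone marrow (KO 3, HET 3 and WT 3 libraries) and 8 sorted from bone marrow (KO 3, HET 2 and WT 3). HET marrow replicate 2 was not analysed here. Strain, age, sex, the marker used for sorting and the treatment in vitro were not given in the sources used here, and nothing says that each library was a separate animal, so p-values measure only the spread between libraries.

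A cell copies its DNA by first loading a ring-shaped helicase, built of the MCM proteins, onto origins in G1 phase. In S phase the ring is activated, primase and the polymerases start and extend new strands, and ribonucleotide reductase and the thymidylate enzymes supply the building blocks. Most of these genes are transcribed at the G1 to S boundary under E2F factors, and dividing hematopoietic progenitors of the marrow express them, whereas mature neutrophils have left the cell cycle.

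Few differences between genotypes were larger than the spread between libraries in vitro. The primase gene Prim1 was lower in KO than in WT cells and was the single member past the threshold in any comparison. This was 1 of 42 members in KO against WT, against 2.99% of all genes tested, and the call was lost under several alternative settings. Several others, among them the thymidine kinase gene Tk1 and the clamp loader gene Rfc4, lay lower in every KO library than in every WT library without passing the threshold. With Prim1 these were 9 members (21.4%), against 9.09% of genes. In sorted marrow 0 of 40 tested members passed in any comparison by limma, against 0 to 0.262% of all genes by comparison. Of the 42 members 30 were listed at 0 in at least 1 library, a share not computed over all genes. HET 1 and HET 3 held the most such members (21 and 18). In these libraries 44.1 and 59.9% of the 7246 genes kept were above 0.

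The libraries themselves were uneven. FPKM (fragment counts scaled to transcript length and sequencing depth) were deposited by the authors, and low values of single-exon genes gave approximate depths of 30700000 to 37000000 fragments in vitro. In marrow these were 16300000 to 36000000 in KO, 3940000 and 11700000 in HET and 21700000 to 31200000 in WT. Fabp4 itself was listed at 0 FPKM in all 3 KO libraries in vitro, at 0, 0.0676 and 0 in HET and at 0, 0.0326 and 0.330 in WT, which is too low to check the labels. Fabp4 was not among the genes of the marrow table, so the marrow genotypes could not be checked in this way. The labelled tissue was checked with 5 pan-hematopoietic markers, and 5 of 5 (Ptprc, Cd53, Coro1a, Laptm5 and Spi1) were above 0 in every library. The 7 neutrophil markers summed to 1471 to 2296 FPKM in KO, 2130 to 4271 in HET and 529 to 1713 in WT in vitro. In marrow they summed to 129086 to 205544 FPKM in KO, 124786 and 126187 in HET and 1187 to 47790 in WT, of a table total of 583983 to 729103 FPKM per library. By median over the marrow libraries the sums came mostly from S100a8 (86711 FPKM), Camp (19076.5), S100a9 (6851) and Ngp (4852). The other markers on the list were low, with medians of 6.19 for Mmp8, 0.052 for Ltf and 0 for Retnlg, which was listed at 0 in 6 libraries. In vitro the 7 macrophage markers summed to 81.9 to 86.2 FPKM in KO, 99.8 to 112 in HET and 52.3 to 68.7 in WT. These sums did not overlap between genotypes and came mostly from Cd68 and Ccr2 (medians 40.6 and 27.2 FPKM). In marrow the 5 macrophage markers listed there overlapped in sum (1068 to 1754 FPKM). The erythroid and megakaryocyte marker sums in vitro overlapped between genotypes (360 to 511 and 200 to 262 FPKM). The 4 genes of the Y chromosome summed to 16.1 to 18.1 FPKM in KO, 25.7 to 30.3 in HET and 8.68 to 11.1 in WT in vitro, and to 4.26 to 34.6 in KO, 0 in HET and 0 to 3.90 in WT in marrow. Xist, expressed from the inactive X chromosome, was at 25.2 to 43.2 FPKM in KO, 12.3 to 18.2 in HET and 31.4 to 49.6 in WT in vitro, and at 5.01 to 13.8 in KO, 31.4 and 65.1 in HET and 37.6 to 57.2 in WT in marrow. The part of the neutrophil or macrophage markers or of these sex-linked genes in the results was not tested.

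Promoter sequences are given for 3 members. Of the 42 members 34 had an entry in the RefSeq promoter table (GRCm38.p6). Shown are the 250 bases before the transcript start that the table uses, for Prim1, the member that passed the threshold, and for Rrm1 and Cdc6, which did not pass and whose windows hold the same kind of motif. The windows of Prim1 and Rrm1 end just before the first base of the gene. That of Cdc6 lies inside the listed span of the gene, which begins at 98907709 on chromosome 11, so it precedes a later start than the first. Capitals mark an E2F motif (TTCCCGC or TTGGCGC, on either strand) and the CCAAT box (CCAAT, on either strand), with letters that were chosen with these windows in view.

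Prim1 (chr10:128014965-128015214, + strand): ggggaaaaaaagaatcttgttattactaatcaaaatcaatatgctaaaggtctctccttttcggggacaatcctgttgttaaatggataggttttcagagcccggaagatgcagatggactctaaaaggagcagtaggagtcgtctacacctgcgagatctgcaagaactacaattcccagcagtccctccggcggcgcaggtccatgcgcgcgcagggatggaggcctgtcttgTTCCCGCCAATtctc
Rrm1 (chr7:102441445-102441694, + strand): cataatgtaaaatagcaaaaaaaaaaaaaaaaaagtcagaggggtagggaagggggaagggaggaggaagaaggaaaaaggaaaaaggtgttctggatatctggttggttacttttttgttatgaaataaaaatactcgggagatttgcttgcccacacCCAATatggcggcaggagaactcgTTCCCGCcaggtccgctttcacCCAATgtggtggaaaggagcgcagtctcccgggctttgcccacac
Cdc6 (chr11:98907901-98908150, + strand): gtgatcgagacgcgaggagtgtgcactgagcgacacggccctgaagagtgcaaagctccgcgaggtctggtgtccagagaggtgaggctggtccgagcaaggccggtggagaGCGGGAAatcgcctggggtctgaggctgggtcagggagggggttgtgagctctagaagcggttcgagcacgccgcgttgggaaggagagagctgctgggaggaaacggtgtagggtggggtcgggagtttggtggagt

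In Prim1 the E2F letters lie at -15 to -9 from the start and share a base with a CCAAT box at -9 to -5. In Rrm1 the E2F letters lie at -67 to -61, between a CCAAT box at -91 to -87 and another at -45 to -41. Cdc6 holds the E2F letters on the opposite strand (GCGGGAA at -138 to -132) and no CCAAT box. Among the 34 members 10 (29.4%) had an E2F motif, against 6.45% of 27025 genes with a window of this length. A CCAAT box was found in 21 members (61.8%), against 37.5% of genes. Both lay in the same window in 9 members (26.5%), against 2.41% of genes. The windows with an E2F motif belonged to Cdc6, Gins3, Mcm5, Mcm6, Mcm7, Pola1, Prim1, Rpa2, Rpa3 and Rrm1. The letters were chosen with windows of these members in view, so the shares are a description and no independent test. These matches describe letters in a window and not binding.

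In vitro every member was transcribed in every library. The mean level over the 9 libraries ran from 2.59 FPKM for Orc1, a subunit of the origin recognition complex, to 169 FPKM for Pcna, the sliding clamp, with a median of 23.3 FPKM. Next below Pcna came Mcm3 (90.2 FPKM), Rfc2 (87.0), Mcm6 (81.7) and Rpa3 (80.8). The lowest levels after Orc1 were those of Ccne1 (4.04 FPKM), Gins3 (4.47), Ccne2 (4.51) and Pole (4.71). The members varied little, with a median coefficient of variation over libraries of 9.87%, against 11.2% among the 8635 genes kept in the same range of levels. Exons of some members overlap another gene (Fen1 with Gm10143 on the opposite strand over 78.8% of its exon bases, Gins2 with Gse1 over 67.3%, Ccne2 with Ints8 over 17.4%). The strand setting was not given, so the levels of these genes are uncertain.

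**Figure D1:**
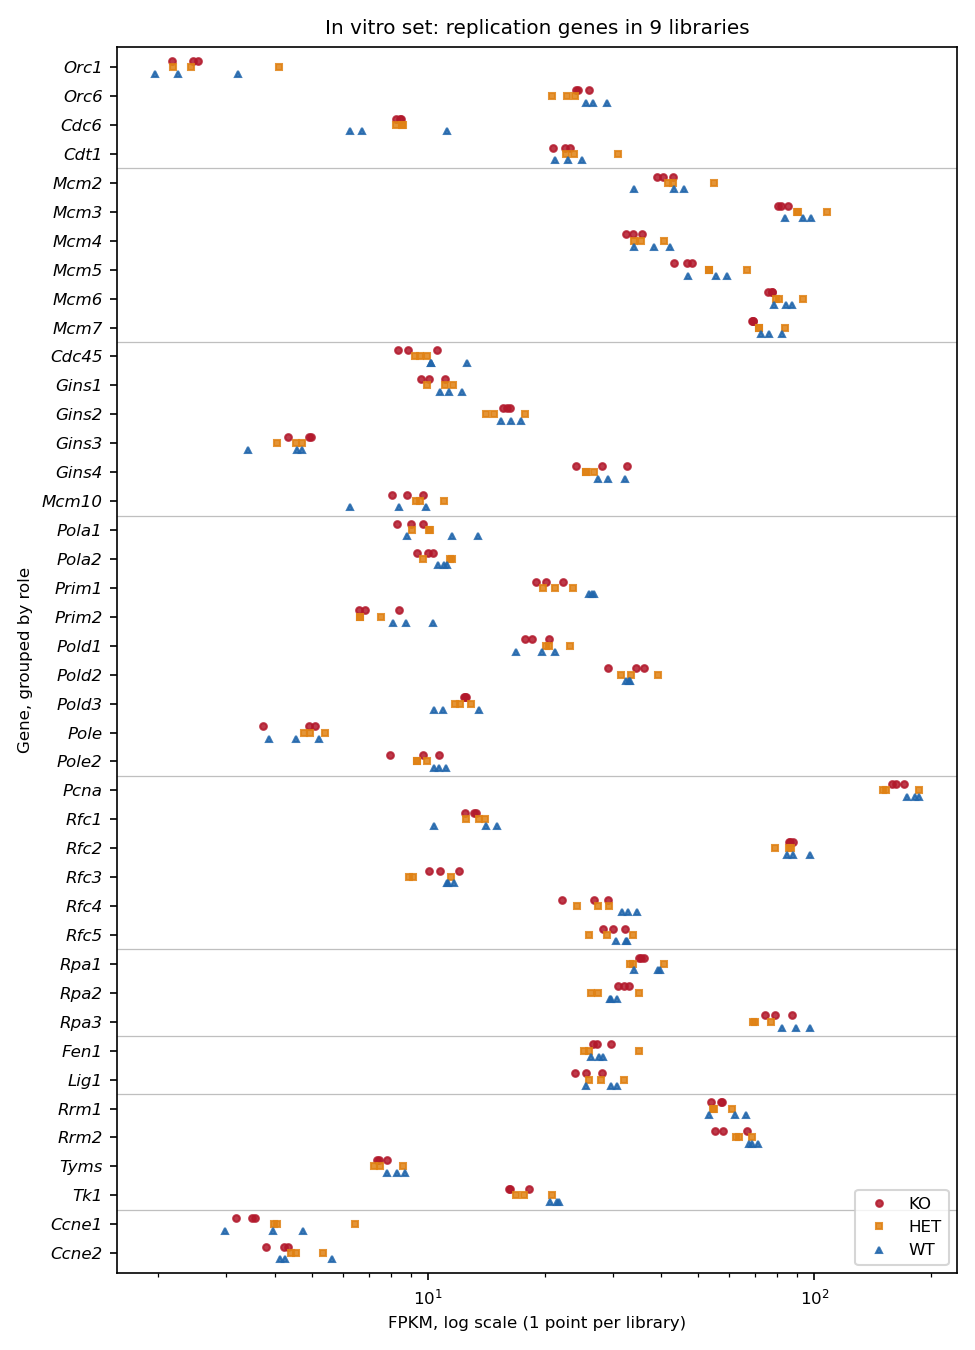
FPKM of each of the 42 replication genes (log axis) in the 9 in vitro libraries, with 1 point per library and the genes grouped by role. The KO points of Prim1 lie at 19.0 to 22.3 FPKM, left of the WT points at 26.0 to 26.9 FPKM, while the points of most genes overlap and a single HET point often lies to the right of the other HET points.

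Of the 4 licensing genes, whose products load the helicase, 0 passed in vitro by limma, against 1.99 to 3.68% of all genes by comparison. Orc6 was lower in HET against WT at an unadjusted p under 0.05 by limma, as were 8.94% of genes. Cdc6, the ATPase that helps load the ring, was at 8.52, 8.26 and 8.45 FPKM in KO, at 8.53, 8.61 and 8.22 in HET and at 11.2, 6.75 and 6.26 in WT. The KO and HET libraries lay close together inside the wide range of WT (KO minus WT log2 change 0.09, limma adjusted p = 0.79). Cdt1, its partner in loading, was at 22.6, 23.3 and 21.0 FPKM in KO, at 30.9, 22.8 and 23.9 in HET and at 25.0, 21.3 and 23.0 in WT. The groups overlapped, and the highest value was that of HET 1 (KO minus WT -0.05, limma adjusted p = 0.852). Orc6 averaged 24.9 ± 1.08 FPKM in KO, 22.6 ± 1.59 in HET and 27.1 ± 1.75 in WT (SD, n = 3 each), and all 3 HET libraries lay below all 3 WT libraries. The HET minus WT change of Orc6 was -0.25 on the log2 scale (95% interval -0.43 to -0.08), which did not pass (limma adjusted p = 0.0967).

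The Mcm2 to Mcm7 genes encode the ring of the helicase. Mcm2 was at 43.1, 39.2 and 40.5 FPKM in KO, at 54.8, 41.7 and 43.0 in HET and at 43.4, 46.0 and 34.1 in WT. The groups overlapped and the KO minus WT log2 change was 0.00 (95% interval -0.27 to 0.27, limma adjusted p = 0.992). It was below 0 after quantile normalization (-0.01) and with median-ratio size factors (-0.03). For Mcm6 and Mcm7 every KO library lay below every WT library. Mcm7 was at 69.4, 68.9 and 69.3 FPKM in KO and at 82.3, 76.2 and 72.8 in WT, a log2 change of -0.15 that did not pass (95% interval -0.32 to 0.02, limma adjusted p = 0.319). The KO minus WT log2 change was -0.11 for Mcm6 (limma adjusted p = 0.448), -0.22 for Mcm5 (0.29) and -0.15 for Mcm3 (0.378), and none passed. The proportions within the ring were steady: Mcm3 was highest in each in vitro library, and the highest of the 6 genes was 2.21 to 2.67 times the lowest.

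Genes for activation of the helicase were at modest levels. These were Cdc45, the GINS genes Gins1 to Gins4 and the activation factor Mcm10, with means over libraries of 4.47 to 28.0 FPKM. Cdc45 averaged 9.24 ± 1.14 FPKM in KO and 11.0 ± 1.41 in WT (SD, n = 3 each), with overlap between the groups and a log2 change of -0.22 (95% interval -0.46 to 0.01, limma adjusted p = 0.284). Of these 6 genes 4 (66.7%) had a fitted KO minus WT change below 0, against 40.8% of all genes, and 0 passed, against 2.99%.

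The primase genes held the lowest fitted changes among the polymerases. Prim1 (chromosome 10, 128015215 to 128030030, GRCm38.p6) encodes the catalytic primase subunit that makes the RNA primers for DNA synthesis. It was at 19.0, 22.3 and 20.2 FPKM in KO, at 23.7, 21.3 and 19.8 in HET and at 26.6, 26.0 and 26.9 in WT. All 6 KO and HET libraries lay below all 3 WT libraries, whose values were close together. Prim1 fell in KO by 0.36 on the log2(FPKM + 1) scale (-0.36 ± 0.09 SE, 95% interval -0.54 to -0.17, limma adjusted p = 0.0491). Less RNA per cell and fewer cells in S phase cannot be told apart in bulk samples, here or for any other member. The call is fragile: the adjusted p was 0.0787 after rescaling to TPM, 0.0733 with only KO and WT in the fit, 0.0923 with no filter on low values and up to 0.210 with a library left out. In HET the change of Prim1 was -0.29 (95% interval -0.47 to -0.10), which did not pass (limma adjusted p = 0.0834), and KO minus HET was -0.07 (limma adjusted p = 0.845).

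Prim2, the regulatory primase subunit, was at 6.86, 8.40 and 6.61 FPKM in KO, at 6.67, 6.65 and 7.54 in HET and at 10.3, 8.11 and 8.74 in WT. The HET libraries lay below all WT libraries, and KO 2 was above the lowest WT library. Its change was -0.28 in KO (95% interval -0.52 to -0.03, limma adjusted p = 0.204) and -0.33 in HET (95% interval -0.58 to -0.09, limma adjusted p = 0.112). Pola1, the catalytic subunit of polymerase alpha, averaged 9.02 ± 0.695 FPKM in KO and 11.3 ± 2.34 in WT (SD, n = 3 each) and did not pass (-0.28, limma adjusted p = 0.267). The delta and epsilon polymerase genes Pold1, Pold2, Pold3 and Pole had KO and WT means that differed by less than the SD of the WT or the KO libraries.

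Pcna, the clamp that holds polymerases on DNA, was at 162, 171 and 158 FPKM in KO, at 186, 153 and 151 in HET and at 173, 183 and 186 in WT. The KO libraries lay below the WT libraries, and the HET libraries spanned both. The KO minus WT change was -0.14 (95% interval -0.33 to 0.05, limma adjusted p = 0.396). Rfc4, a subunit of the loader that opens the clamp, was at 22.2, 29.2 and 26.8 FPKM in KO, at 29.4, 27.5 and 24.2 in HET and at 32.8, 31.7 and 34.8 in WT. Every KO and HET library was below every WT library, with changes of -0.34 in KO (95% interval -0.57 to -0.11, limma adjusted p = 0.105) and -0.29 in HET (-0.51 to -0.06, 0.133). Of the exon bases of Rfc4 12.7% overlap Eif4a2 on the opposite strand. The other loader genes Rfc1, Rfc2, Rfc3 and Rfc5 overlapped between KO and WT.

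The single-strand binding genes Rpa1, Rpa2 and Rpa3 coat unwound DNA. Rpa2 was the only member whose KO libraries (33.1, 32.1 and 31.0 FPKM) all lay above the WT libraries (29.7, 29.5 and 30.7), a change of 0.09 that did not pass (limma adjusted p = 0.644). Rpa3 was at 74.3, 87.4 and 78.9 FPKM in KO, at 70.0, 77.1 and 69.4 in HET and at 89.8, 82.3 and 97.4 in WT. The HET libraries lay below the WT libraries (-0.31, 95% interval -0.50 to -0.12, limma adjusted p = 0.0671, and 0.047 without KO 2). Fen1, which trims the flaps of Okazaki fragments, averaged 27.9 ± 1.62 FPKM in KO and 27.4 ± 1.01 in WT (SD, n = 3 each). Lig1, which seals them, averaged 26.0 ± 2.10 FPKM in KO and 28.7 ± 2.69 in WT (SD, n = 3 each), and the groups overlapped for both.

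All 4 nucleotide supply genes had a fitted KO minus WT change below 0, and 0 passed by limma (2 lower at an unadjusted p under 0.05). Over all genes 40.8% were below 0, 2.99% passed and 7.48% were lower at an unadjusted p under 0.05. Tk1, which salvages thymidine, was at 16.2, 18.3 and 16.3 FPKM in KO, at 20.9, 16.9 and 17.7 in HET and at 21.9, 20.6 and 21.5 in WT. Each KO library was below each WT library, and HET 1 was inside the WT range. The KO minus WT change of Tk1 was -0.32 (95% interval -0.52 to -0.12, limma adjusted p = 0.086), and 0.0464 without HET 1. Rrm2, the S phase subunit of ribonucleotide reductase, was at 58.1, 66.7 and 55.4 FPKM in KO, at 69.0, 63.8 and 62.8 in HET and at 69.0, 67.6 and 71.6 in WT. Again the KO libraries lay below the WT libraries, without passing (-0.21, 95% interval -0.38 to -0.03, limma adjusted p = 0.178).

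Rrm1, the large subunit of the reductase, was at 57.5, 53.9 and 57.3 FPKM in KO, at 61.0, 54.7 and 55.0 in HET and at 66.4, 62.1 and 53.3 in WT. The groups overlapped because WT 3 was the lowest of all 9 libraries (KO minus WT -0.10, limma adjusted p = 0.562). Tyms, which makes thymidylate, was at 7.82, 7.47 and 7.36 FPKM in KO, at 8.60, 7.23 and 7.51 in HET and at 7.83, 8.31 and 8.70 in WT. The highest KO library lay just under the lowest WT library (-0.12, limma adjusted p = 0.507).

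The E-type cyclins bind CDK2 and drive entry into S phase. Ccne1 was at 3.56, 3.17 and 3.49 FPKM in KO, at 6.46, 3.98 and 4.05 in HET and at 2.98, 3.96 and 4.73 in WT. The KO libraries lay inside the WT range and below all HET libraries (KO minus WT -0.14, 95% interval -0.50 to 0.23, limma adjusted p = 0.705). Ccne2 was at 3.80, 4.34 and 4.22 FPKM in KO, at 5.33, 4.54 and 4.41 in HET and at 5.62, 4.25 and 4.12 in WT. The KO and WT groups overlapped (-0.14, limma adjusted p = 0.562).

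**Figure D2:**
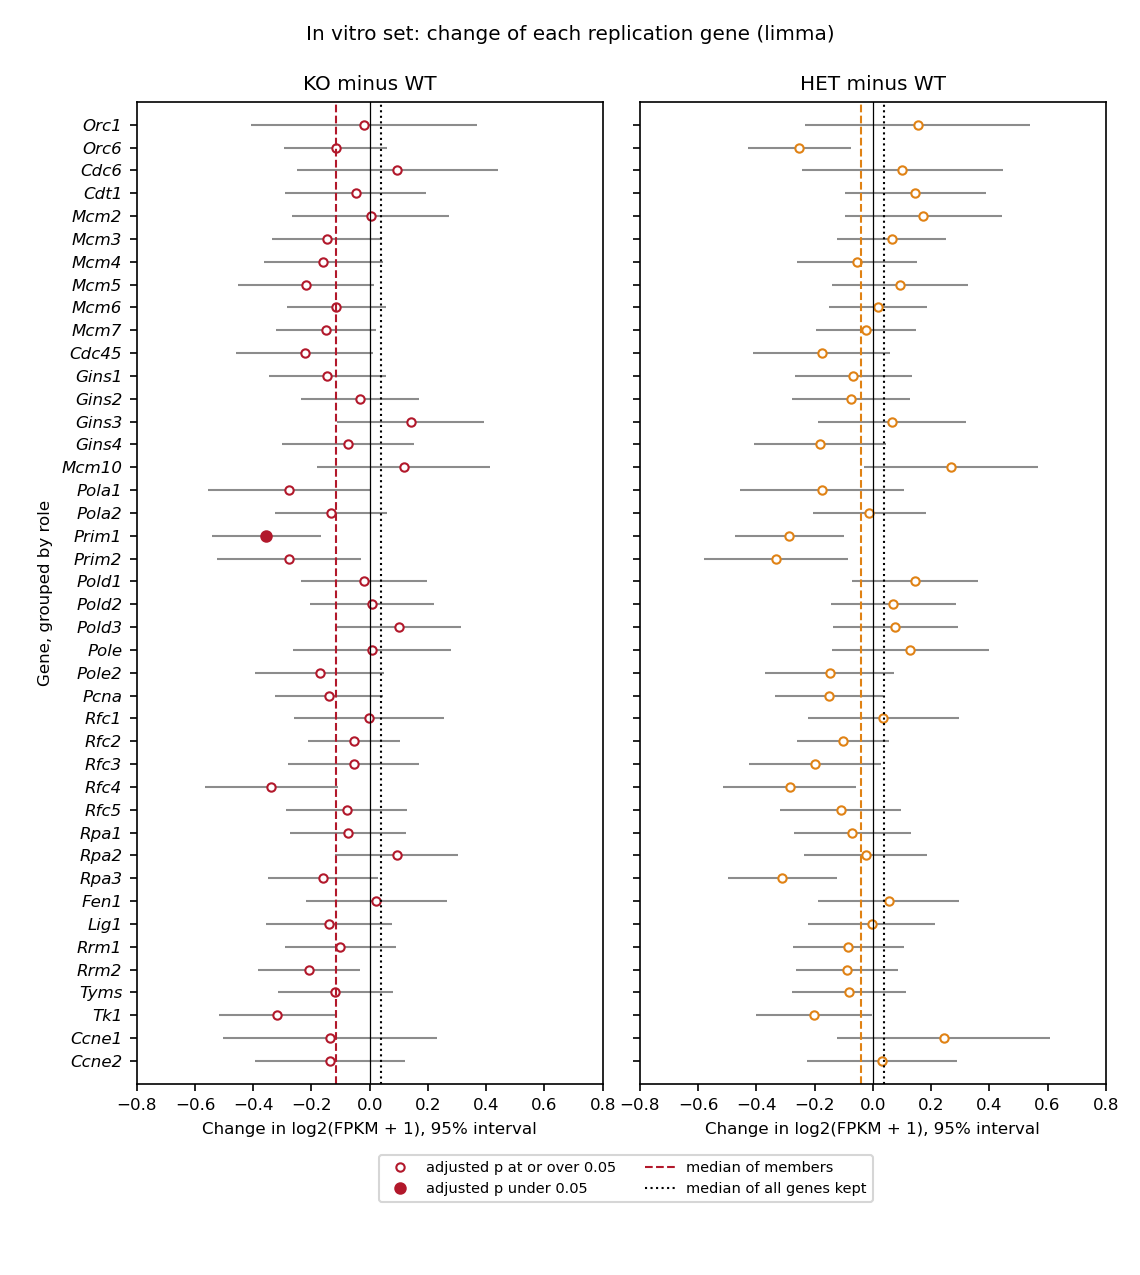
Fitted change of each replication gene in log2(FPKM + 1) with its 95% interval, for KO minus WT and for HET minus WT in vitro (n = 3 libraries per genotype). Prim1 in KO (-0.36) is the single filled point, and the dashed median of the members (-0.12 in KO and -0.04 in HET) lies left of the dotted median of all genes kept (0.04 in both).

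As a group the members had small changes in KO cells. By limma 1 of 42 (2.38%) was lower and 0 were higher at an adjusted p under 0.05, against 1.63% lower and 1.36% higher (2.99% in all) of the 10877 genes tested. Of the 325 genes called 148 were higher, against 120 of 342 after quantile normalization and 122 of 345 with median-ratio size factors. At an unadjusted p under 0.05 limma gave 5 members lower (11.9%), against 7.48% of genes, and 0 higher, against 12% of genes. Every KO library lay below every WT library for 9 members (21.4%), against 9.09% of genes. These were Mcm6, Mcm7, Pola2, Prim1, Pcna, Rfc4, Rrm2, Tyms and Tk1. The opposite held for 1 member (2.38%), against 13.8% of genes. The fitted change was below 0 for 33 members (78.6%), against 40.8% of genes, with a median of -0.12 for members and 0.04 for all genes. By role the medians lay between -0.16 for nucleotide supply, with 4 of 4 genes below 0, and -0.03 for licensing, with 3 of 4, and that of the MCM ring was -0.15, with 5 of 6. The lowest and highest limits of the members' 95% intervals were 0.675 and 1.36 times the WT value on the FPKM + 1 scale. These limits come from separate intervals of single genes and are not a joint range for the members.

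Summed over the 42 genes, the KO libraries held 1293, 1325 and 1257 FPKM, the HET libraries 1484, 1287 and 1269 and the WT libraries 1446, 1401 and 1373. The KO sums lay below the WT sums. As a share of the table's total FPKM the groups overlapped, at 0.254 to 0.264% in KO, 0.262 to 0.309% in HET and 0.254 to 0.296% in WT. The 22 genes of mitosis, the later phase of the same cycle, summed to 1165 to 1249 FPKM in KO, 1150 to 1158 in HET and 1078 to 1272 in WT. Of these 16 had a fitted KO minus WT change above 0 and 6 (27.3%) below 0, against 40.8% of all genes below 0. By limma 0 passed, against 2.99% of genes. At an unadjusted p under 0.05 limma gave 1 higher, against 12% of genes, and 1 lower, against 7.48%. The median was 0.07, beside 0.04 for all genes. The neutrophil marker sums of the same libraries are given in the plot of sums, and their part in these sums was not tested.

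**Figure D3:**
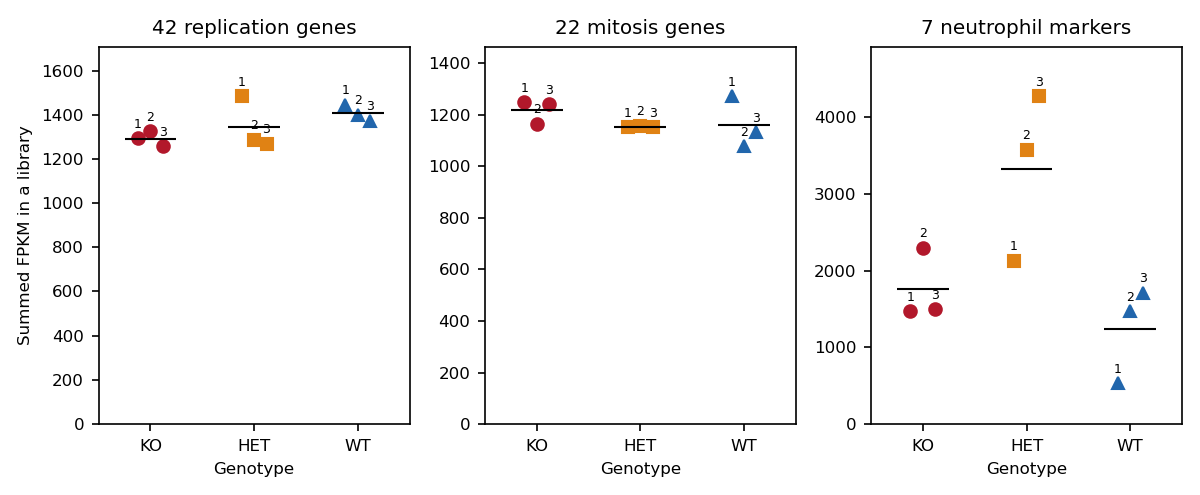
Summed FPKM in each in vitro library for the 42 replication genes, 22 mitosis genes and 7 neutrophil markers, with numbered points for replicates and a bar at the mean of each genotype. The KO replication sums (1257 to 1325) lie under the WT sums (1373 to 1446), HET 1 (1484) is the highest, and the mitosis sums overlap.

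In HET cells 0 of 42 members passed against WT by limma, against 3.68% of genes (2.94% higher and 0.735% lower). Of the 400 genes called 320 were higher, against 262 of 435 after quantile normalization. At an unadjusted p under 0.05 limma gave 6 members lower (14.3%), against 8.94% of genes, and 0 higher, against 14.5%. Every HET library lay below every WT library for 8 members (19.0%), against 11.9% of genes. These were Orc6, Cdc45, Gins4, Prim1, Prim2, Pole2, Rfc4 and Rpa3. The opposite held for 0 members, against 17.2% of genes. The fitted change was below 0 for 25 members (59.5%), against 42.5% of genes, and the median was -0.04.

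Among the HET libraries, HET 1 had the highest value of the 3 HET libraries for 36 of 42 members (85.7%), against 38.8% of the genes kept. Without HET 1 the HET minus WT change was below 0 for 32 members and the median was -0.12. After rescaling to TPM it was below 0 for 18 members, with a median of 0.03 beside 0.11 for all genes. The estimated depth of HET 1 (34600000 fragments) lay within the range of the other libraries, and its neutrophil marker sum (2130 FPKM) was the lowest of the HET libraries. The part of that sum was not tested.

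KO and HET cells differed for 0 of 42 members by limma, against 1.99% of genes (0.598% higher and 1.39% lower). At an unadjusted p under 0.05 limma gave 3 members lower (7.14%), against 7.14% of genes, and 0 higher, against 6.07%. The 3 were Mcm5, Mcm3 and Ccne1. Mcm5 was at 48.3, 46.9 and 43.3 FPKM in KO and at 66.8, 53.2 and 53.4 in HET. The groups did not overlap (-0.31, 95% interval -0.55 to -0.08, limma adjusted p = 0.202). Every KO library lay below every HET library for 6 members (14.3%), against 11.1% of genes, 4 of them MCM ring genes and the others Ccne1 and Ccne2. The opposite held for 1 member, Orc6, against 11.3% of genes. The fitted change was below 0 for 30 members (71.4%), against 50.6% of genes, and for 24 without HET 1. The comparisons with HET share its libraries with HET against WT, and those with WT share the WT libraries.

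Other genes of the pathway, in 6 lists of 124 genes, held 1 gene that passed in KO against WT and 1 in HET against WT in vitro. Over all genes 2.99% and 3.68% passed in these comparisons. In KO against WT 0 of 15 other origin genes, 0 of 23 other fork genes, 0 of 19 other deoxynucleotide genes and 0 of 18 genes of purine and pyrimidine synthesis passed in either direction by limma. At an unadjusted p under 0.05 the origin and fork lists held 1 lower gene each, the deoxynucleotide list 1 higher and 6 lower (36.8% of it) and the purine and pyrimidine list 3 higher and 3 lower (33.3%), against 12% higher and 7.48% lower over all genes. Of 23 tested genes that control E2F and S phase entry 1 was lower and 0 were higher. This was Cdkn1a, which encodes the CDK inhibitor p21 and restrains S phase entry, at 124 ± 1.37 FPKM in KO and 178 ± 9.85 in WT (SD, n = 3 each). It fell in KO by 0.51 on the log2 scale (-0.51, limma adjusted p = 0.00949, and 0.0573 without KO 3).

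In HET against WT 1 of 19 other deoxynucleotide genes was lower and 0 were higher, against 0.735% lower and 2.94% higher over all genes. In the other lists 0 passed. These held 1 to 6 genes each at an unadjusted p under 0.05 by limma (4.55 to 33.3% of a list), against 14.5% higher and 8.94% lower over all genes. The gene that passed was Mthfd2, a mitochondrial enzyme of the folate pathway that feeds thymidylate and purine synthesis. It was at 35.1 ± 2.64 FPKM in HET and 47.7 ± 3.83 in WT (SD, n = 3 each). It fell in HET by 0.43 on the log2 scale (-0.43, limma adjusted p = 0.0156). The adjusted p of Mthfd2 by limma was 0.0637 after rescaling to TPM, 0.0617 without HET 1, 0.0863 without HET 3 and 0.053 without WT 2. The medians of the lists in KO against WT lay between -0.04 for other origin genes and 0.07 for mitosis, beside -0.12 for the members and 0.04 for all genes. The fitted change was below 0 for 60% of the other origin genes, 56.5% of the other fork genes and 52.6% of the other deoxynucleotide genes. For the E2F list this was 47.8%, for purine and pyrimidine synthesis 33.3% and for mitosis 27.3%, beside 78.6% of the members and 40.8% of all genes. In KO against HET 0 genes of the 6 lists passed by limma, against 1.99% of all genes. Per list 0 to 4 genes (0 to 21.1%) did so at an unadjusted p under 0.05, against 6.07% higher and 7.14% lower over all genes.

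In sorted marrow the same genes were detected unevenly. Of the 42 members 8, 3 and 6 were listed at 0 in the KO libraries, 21 and 18 in HET and 9, 4 and 2 in WT. An exact 0 can be a failed estimate, so such a gene is only said to be listed at 0. Over the 7246 genes kept in marrow the shares above 0 were 75.8, 90.0 and 87.7% in KO, 44.1 and 59.9% in HET and 86.2, 89.0 and 86.8% in WT, so the HET libraries were low for genes in general. Of the members 30 were listed at 0 in at least 1 library, 12 never were, and 7 reached 1 FPKM in every library. The same shares over all genes were not computed. The HET libraries were also the shallowest, at 3940000 and 11700000 fragments, and the part of depth was not tested.

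**Figure D4:**
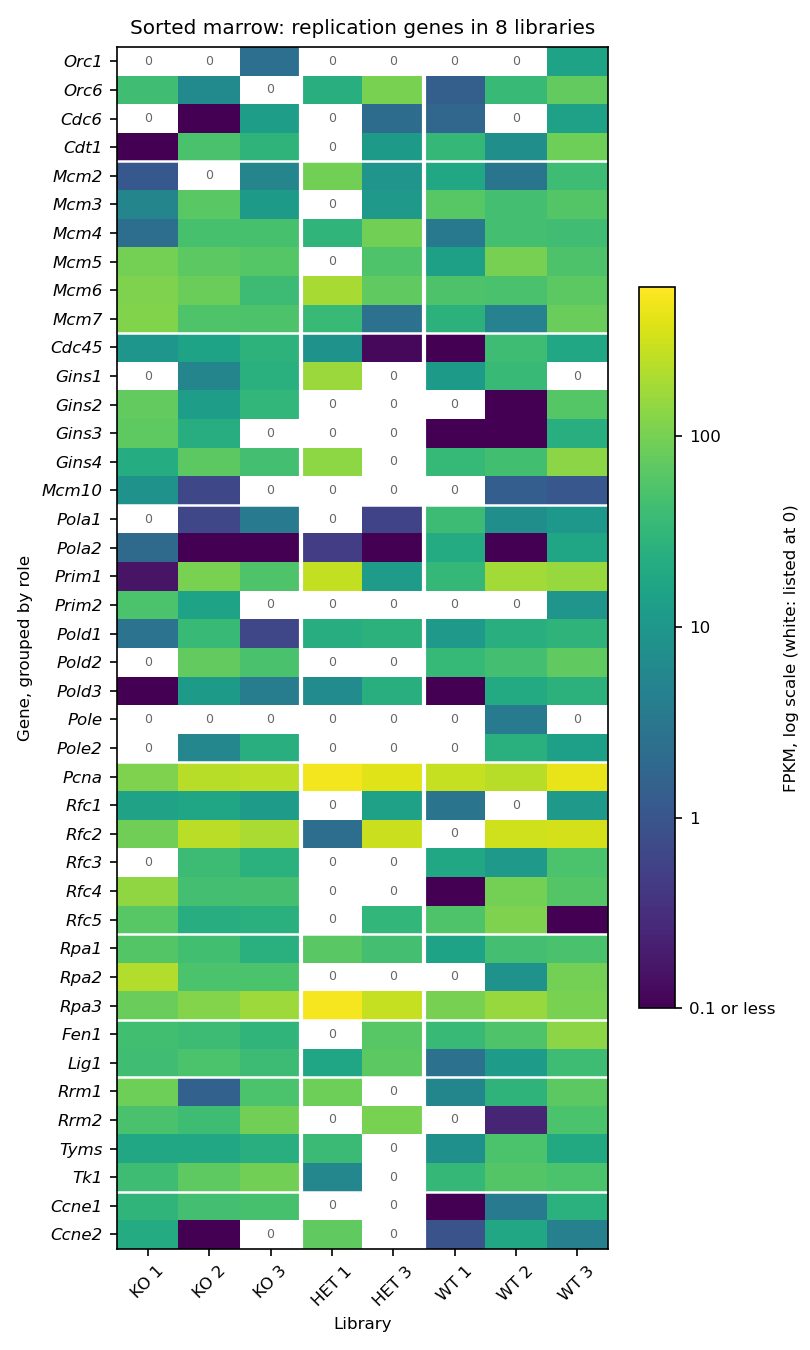
FPKM of each of the 42 replication genes in the 8 sorted marrow libraries (colour, log scale), with genes grouped by role and white cells marked 0 where a gene was listed at 0. HET 1 and HET 3 have 21 and 18 such cells, the other libraries 2 to 9, and Pcna stays above 100 FPKM throughout.

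The clamp had the highest mean of the members in marrow, although Rpa2, Rfc2 or Rpa3 was higher in KO 1, KO 2, HET 1 and WT 2. Pcna was at 113, 232 and 251 FPKM in KO, at 506 and 391 in HET and at 282, 237 and 452 in WT. The KO and WT libraries overlapped (-0.73, 95% interval -1.78 to 0.32, limma adjusted p = 0.995), and both HET libraries lay above all KO libraries. The proportions of the helicase genes were uneven in marrow, where values varied widely in general. The median coefficient of variation over libraries was 92.9% for the members kept, against 114% for the 6928 genes kept in the same range of levels. Mcm2 was at 1.11, 0 and 5.33 FPKM in KO, at 92.9 and 9.32 in HET and at 18.3, 2.96 and 39.6 in WT. The KO and WT groups overlapped (-2.62, limma adjusted p = 0.993). In KO 1 the highest of the 6 ring genes was 105 times the lowest, and in WT 3 it was 2.07 times.

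The primase and polymerase genes varied in the same way. Prim1 was at 0.160, 106 and 53.9 FPKM in KO, at 271 and 11.8 in HET and at 33.0, 180 and 159 in WT. No genotype stood apart, and the KO minus WT change of -2.39 had a 95% interval of -6.12 to 1.34 (limma adjusted p = 0.995). Its fall in vitro could not be examined at this spread. Pola1 was listed at 0, 0.638 and 3.75 FPKM in KO, at 0 and 0.585 in HET and at 38.7, 7.74 and 10.2 in WT. All KO and HET libraries lay below all WT libraries. The KO minus WT change of Pola1 was -2.99 (95% interval -5.76 to -0.22), which did not pass (limma adjusted p = 0.902). Pola1 lies on the X chromosome, Xist was lower in every KO than in every WT marrow library, and the part of this was not tested.

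Among the supply enzymes, Tk1 was at 40.9, 68.5 and 93.1 FPKM in KO, at 5.63 and 0 in HET and at 32.6, 59.3 and 50.8 in WT. KO and WT overlapped (0.46, limma adjusted p = 0.999), and both HET libraries were below all others. The changes of Tk1 did not pass for HET minus WT (-4.20, 95% interval -7.09 to -1.31, limma adjusted p = 0.233) or for KO minus HET (4.66, 1.77 to 7.55, 0.189). Rrm2 was listed at 49.8, 40.9 and 95.6 FPKM in KO, at 0 and 104 in HET and at 0, 0.249 and 51.4 in WT. The groups overlapped through WT 3 (3.87, 95% interval -0.44 to 8.19, limma adjusted p = 0.993).

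Rrm1 was listed at 87.9, 1.49 and 51.0 FPKM in KO, at 87.8 and 0 in HET and at 5.47, 28.6 and 68.1 in WT. Tyms was at 18.7, 18.2 and 23.5 FPKM in KO, at 38.2 and 0 in HET and at 7.75, 51.1 and 20.0 in WT. Both overlapped between the genotypes. Cdc6 was listed at 0, 0.0615 and 13.1 FPKM in KO, at 0 and 2.15 in HET and at 1.76, 0 and 14.6 in WT. Cdt1 was listed at 0.0279, 50.1 and 29.0 FPKM in KO, at 0 and 11.4 in HET and at 32.5, 7.74 and 88.8 in WT. The licensing factors thus overlapped between all genotypes in marrow.

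Ccne1 was at 29.5, 44.1 and 47.6 FPKM in KO, at 0 in HET 1 and HET 3, and at 0.0235, 3.62 and 26.2 in WT. Every KO library lay above every WT library, a change of 3.01 that did not pass (95% interval -0.18 to 6.20, limma adjusted p = 0.993). Ccne2 was listed at 21.1, 0.00904 and 0 FPKM in KO, at 72.4 and 0 in HET and at 0.931, 17.7 and 4.43 in WT. The genotypes overlapped. The neutrophil marker sums were higher in every KO library than in every WT library of this set, and their part in these values was not tested.

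Across the members, 0 of 40 tested passed in KO against WT marrow by limma, against 0% of 7246 genes. At an unadjusted p under 0.05 limma gave 1 lower, against 3.3% of genes, and 0 higher, against 1.81%. Orc1 and Pole were below the filter. KO and WT libraries did not overlap for 3 members, 2 of 40 higher in KO (Ccne1 and Rfc1), against 4.11% of genes, and 1 lower (Pola1), against 8.14%. The fitted change was below 0 for 21 members (52.5%), against 56.4% of genes. The median change was -0.03 for members and -0.18 for all genes, and the 95% intervals of single members reached from -6.12 to 8.19 on the log2 scale. A difference of the size seen in vitro was not detectable at this spread (median SE of the members 1.56 in marrow and 0.10 in vitro).

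In HET against WT marrow 0 of 40 members passed by limma, against 0.262% of genes. Limma gave 6 lower at an unadjusted p under 0.05, against 11% of genes, and 1 higher, against 1.46%. HET lay below WT without overlap for 8 members, against 24.3% of genes, and above for 2, against 5.8%. The fitted change was below 0 for 26 (65.0%), against 70.5%. The median was -1.23 for members and -0.99 for all genes. In KO against HET 0 of 40 passed by limma, against 0.166% of genes. Limma gave 5 higher at an unadjusted p under 0.05, against 9.19% of genes, and 3 lower, against 2.08%. KO lay above HET without overlap for 8 members, against 20.7% of genes, and below for 3, against 7.27%. The fitted change was below 0 for 12 (30.0%), against 32.9%. The median was 1.78 for members and 0.83 for all genes, so both comparisons with HET carry a shift of the whole table. None of the genes in the 6 other lists passed in marrow by limma in the 3 comparisons, against 0 to 0.262% of all genes. Per list 0 to 5 genes (0 to 31.25%) did so at an unadjusted p under 0.05. Over all genes 1.46 to 9.19% were higher and 2.08 to 11% lower at that level, by comparison.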

How the data were processed

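The authors deposited FPKM per gene in a table for each set, per the file headers. Per the submitters' processing notes reads were placed on mm10, and RNA was extracted with TRIzol, per the labels' protocols. For the aligner, counting tool, annotation and strand: not given in the sources used here. FPKM shift for all genes when abundant transcripts grow, and genotypes were compared within a table only.

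Tests used limma 3.58.1 in R 4.3.3 (statmod 1.5.0) on log2(FPKM + 1), with trend and robust moderation. The filter kept genes reaching FPKM 1 in 3 or more libraries. All genotypes of a table entered a single model without a block. P-values were adjusted by Benjamini-Hochberg over all genes kept (threshold 0.05). This scale understates changes of low genes. Fragment depths were estimated from steps of low values within 0.1 of whole fragments, which held for 77.1 to 87.3% of them. The procedure was run on simulated data with independent noise per gene and planted changes larger than those of the members in vitro. The simulation held no differences in depth between libraries, so it does not cover the uneven marrow libraries or changes as small as those in vitro.

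The members, lists and tests were chosen with earlier results of these data known. Values per library are given for members past the threshold and for Mcm2, Pcna, Cdc6, Cdt1, Rrm1, Rrm2, Tyms, Tk1, Ccne1 and Ccne2, and list genes past the threshold are named. Other members with values were picked after these were seen. Alternatives were TPM, a pseudocount of 0.1, median-ratio size factors, quantile normalization, no filter, a stricter filter (FPKM 5), only the compared genotypes, the replicate number as a block, and leaving out each library. Positions and promoters are those of RefSeq on GRCm38.p6.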

Additional observations from a re-analysis of the deposited data

Results flagged for a closer look

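The fitted change of Rpa3 had opposite signs in HET against WT in the 2 sets, with no overlap in either. In vitro it was at 70.0, 77.1 and 69.4 FPKM in HET and at 89.8, 82.3 and 97.4 in WT (log2 change -0.31). In marrow it was at 532 and 277 FPKM in HET and at 99.4, 156 and 103 in WT (1.71). The difference between the sets was not tested, and neither change passed within its set. It was found by looking for members without overlap in opposite directions, and the share of all genes that do so was not computed. Over all genes HET lay below WT for 11.9% in vitro and above WT for 5.8% in marrow. The HET marrow libraries were the shallowest (3940000 and 11700000 fragments), and the part of depth was not tested.

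Mcm5 and Mcm7 had opposite signs in the same way in KO against HET, with no overlap in either set. Over all genes KO lay below HET for 11.1% in vitro and above HET for 20.7% in marrow. The share of all genes that did both was not computed. The HET marrow libraries were low for genes in general (44.1 and 59.9% of the genes kept above 0). The log2 change of Mcm5 was -0.31 in vitro and 3.31 in marrow, where it was at 95.9, 66.6 and 60.4 FPKM in KO and at 0 and 54.7 in HET. This fold rests on HET 1, which listed Mcm5 at 0: without HET 1 it was 0.41, and without HET 3 it was 6.21. The log2 change of Mcm7 was -0.13 in vitro and 2.58 in marrow, where it was at 116, 54.7 and 52.1 FPKM in KO and at 36.8 and 2.62 in HET. It was 4.28 without HET 1 and 0.89 without HET 3. These differences were not tested. Ccne1 went the same way, with no fold in marrow because both HET libraries listed it at 0.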

How the results depend on the processing

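The count of members called in KO against WT in vitro (1) was 0 with no filter, after rescaling to TPM, with only the compared genotypes and with the replicate block, and 0 to 2 with a library left out. Prim1 kept its call without KO 2 (adjusted p 0.0318) and HET 1 (0.0344) and lost it without any of the other 7 libraries. With the replicate block its adjusted p was 0.098. Replicate numbers did not pair the in vitro libraries (correlations of deviations -0.303 to 0.181). Left-out libraries gave 0 to 1 called members in HET against WT in vitro (Rpa3 lower without KO 2, and Cdc6 higher at 0.33 without WT 1, reversed to -0.038 without WT 3). In marrow they gave 0 to 2 in HET against WT and in KO against HET, all with a single HET library left that listed the gene at 0 (Tk1 without HET 1, Fen1 and Mcm5 without HET 3). The lone library is assumed to vary like the others. The marrow median of HET minus WT (-1.23) was -2.30 with a pseudocount of 0.1 and 0.0019 after quantile normalization, and -1.69 to -0.48 with a library left out. That of KO minus HET (1.78) was 2.95, 0.93 and 0.53 to 2.05, and that of KO minus WT (-0.03) was -0.68 to 0.49 with a library left out. The in vitro HET minus WT median (-0.04) was -0.12 to 0.00, and the KO minus HET median -0.08 to -0.01. Changes near 0 reversed: Mcm2 in KO against WT (-0.015 after quantile normalization, -0.033 with size factors, -0.12 to 0.087 with a library left out), Cdc6 (-0.045 to 0.33) and Cdt1 (-0.10 to 0.0093). Genes called over the table moved by over 1.5 times. In KO against WT in vitro 325 became 152 with no filter, 175 with only the compared genotypes, 172 with the block and 66 to 475 without a library. In HET against WT 400 became 250, 261, 234 and 84 to 628, and in KO against HET 216 became 136 with a filter at FPKM of 5 and 73 to 344 without a library. In marrow 19 genes in HET against WT became 35 with a pseudocount of 0.1, 12 after quantile normalization, 0 with only the compared genotypes or the block and 0 to 323 without a library. The 12 in KO against HET became 31, 7, 0 and 0 to 330, and 6 with no filter. The 0 in KO against WT became 2 after quantile normalization and 4 without WT 3. The causes were not tested. Beside these, Tk1 passed in KO against WT in vitro without HET 1 (0.0464), and no other of the member changes recomputed did so or reversed. For 2 other genes of the pathway the alternatives were added after seeing the data. Cdkn1a kept its call except without KO 3, and Mthfd2 except after rescaling to TPM and without HET 1, HET 3 or WT 2, with changes of -0.56 to -0.49 and -0.49 to -0.37 with a library left out. Depth and zeros limit the marrow values.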

Other observations

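Some members encode subunits that act as pairs. The ratio of Rrm2 to Rrm1 in FPKM was 1.01, 1.24 and 0.967 in KO, 1.13, 1.17 and 1.14 in HET and 1.04, 1.09 and 1.34 in WT. The ratio of Prim2 to Prim1 was 0.360, 0.376 and 0.327 in KO, 0.282, 0.312 and 0.381 in HET and 0.386, 0.312 and 0.325 in WT. Both ratios overlapped between the 3 genotypes. In marrow Prim2 was listed at 0 in 5 of 8 libraries, and no ratio is given there.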
